A study of Mus musculus with 15 samples.

Results

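The liver response to a diet rich in fat and sucrose (HF/HS) was averaged over mice that had no microbes and mice that had a normal microbiota, and the genes that moved the same way in both were described. The comparison set 6 mice on HF/HS against 6 mice on chow. Each set of 6 held 3 germ-free (GF) and 3 conventionally raised (ConvR) mice, which acquired a microbiota from birth, and these 12 livers were chosen from the 15 of the study by the group named in their titles. The other 3 came from mice colonised as adults (ConvD) on chow and were not compared here. All mice were C57BL/6J males with no engineered allele named in the labels, they were put on their diet at 3 weeks of age and they were dissected at 19 weeks. Chow supplied 53.2% of its energy as carbohydrate, 23.7% as fat and 23.1% as protein, and HF/HS supplied 40.6%, 44.6% and 14.8%. Thus the 2 foods differed in all 3 nutrients, and the part of each in a gene's response cannot be told apart. GF and ConvR mice lived in separate isolators and were caged by diet and colonisation status, so cage and isolator cannot be told apart from the groups.

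The liver makes fatty acids from surplus sugar and makes cholesterol from the same acetyl-CoA. Fatty acid synthesis genes are switched on by the transcription factors SREBP-1c and ChREBP, which answer to insulin and to sugar. Cholesterol synthesis genes are switched on by SREBP-2 when cell sterols are low and fall when sterols accumulate. Fatty acids themselves activate the nuclear receptor PPAR alpha, which raises genes of fatty acid oxidation, and gut microbes reach the liver through bile acids, short-chain fatty acids and bacterial products carried in portal blood.

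RNA was measured by sequencing of polyadenylated transcripts. The 12 libraries held 14737578 to 21331381 estimated counts, and 12377 of the 20325 genes in the files passed the filter on low counts. Levels of a gene are given below for each mouse in CPM, its count scaled to the normalised library total. The diet effect is a log2 fold change of HF/HS over chow with its standard error, and each adjusted p is from the edgeR quasi-likelihood F test, corrected by the Benjamini-Hochberg method over all 12377 genes (called at 0.05). Separate mice were the replicates, 3 per group. Of 17 hepatocyte markers none was under 1 TPM (abundance scaled to gene length and library total) in every library, and their summed level was 50360 to 114600 TPM in the 12 livers.

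Several livers stood apart. ConvR chow mice 1 and 2 had high acute phase transcripts and GF chow mouse 1 had high immediate early transcripts, and results that rest on them are given with and without them. On the first principal component, which held 27.2% of the variance, the 6 GF and ConvR chow livers lay between -41.2 and -9.1. The 6 HF/HS livers lay between 15.9 and 29.9. All ConvD chow livers lay between these ranges at positive values, so chow livers were not all on the negative side. Gene length moved with diet too. Within a library, the rank correlation between gene length and expression relative to the mean of all libraries was 0.089 to 0.277 in the HF/HS libraries and -0.341 to 0.018 in the chow libraries of the 4 groups. In the ConvD chow libraries, which were not compared, it was 0.077 to 0.196.

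Averaged over both states, 3105 genes were called for diet (25.1% of those tested). Of these, 1413 were higher on HF/HS (11.4% of tested genes) and 1692 were lower (13.7%). Among them, 327 differed by at least 2-fold, 149 higher and 178 lower. Within GF mice alone 1182 genes were called (9.55%), 507 higher and 675 lower (5.45%), and within ConvR mice alone 1802 were called (14.6%), 836 higher (6.75%) and 966 lower (7.8%). These 2 tests share no mouse. They had 504 calls in common, and 503 of those had the same sign, 230 higher and 273 lower, or 4.06% of tested genes. The 503 were 42.6% of the GF calls and 27.9% of the ConvR calls. Only Gna14, a G protein alpha subunit, was called in opposite directions. Without ConvR chow mice 1 and 2, 2091 genes were called for the averaged effect, 344 within ConvR mice and 206 in both states with the same sign. Counts within a state also moved with single mice. Leaving out 1 of the 3 GF HF/HS mice left 301 to 353 GF calls and 175 to 198 shared ones, and without GF chow mouse 1 there were 696 GF calls. Without ConvR chow mouse 1, ConvR chow mouse 2 or ConvR HF/HS mouse 2 there were 1117, 1052 and 984 ConvR calls.

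Most averaged calls had the same sign with and without microbes, as an average of 2 effects favours. Of the 3105, 3060 (98.6%) had fold changes of the same sign in GF and ConvR mice, against 67.1% of all tested genes. A further test asked whether the diet effects differed between the states. No gene passed that interaction test with edgeR (smallest adjusted p = 0.0503), 1573 genes had an unadjusted p under 0.05, limma-voom called 0 and DESeq2 called 150. Without ConvR chow mouse 3 edgeR called 436, and without ConvR HF/HS mouse 3 it called 21. Because a missed threshold does not show equal effects, the 95% interval of the difference was used as well. For 2388 of the 3105 genes (76.9%) both effects had the same sign and the interval lay inside -1 to 1, that is, the effects differed by less than 2-fold. They comprised 1085 higher and 1303 lower genes, and over all tested genes 72.1% had such an interval. The bound of 1 is wide beside most of these effects, whose median size over the 3105 genes was 0.378 in GF and 0.413 in ConvR mice. With a bound of 0.58 in place of 1, 1418 genes met both conditions, and of the 327 genes with at least a 2-fold averaged change 30 met them at the bound of 1. In 1604 genes (13% of those tested) the CPM of the HF/HS mice did not overlap that of the chow mice in either state and lay on the same side in both, with 738 higher (5.96%) and 866 lower (7%), and 1535 of these were among the averaged calls. Over all tested genes the GF and ConvR diet effects had a Pearson r of 0.491 and a Spearman rho of 0.466, which describes these genes and is not a test.

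**Figure D1:**
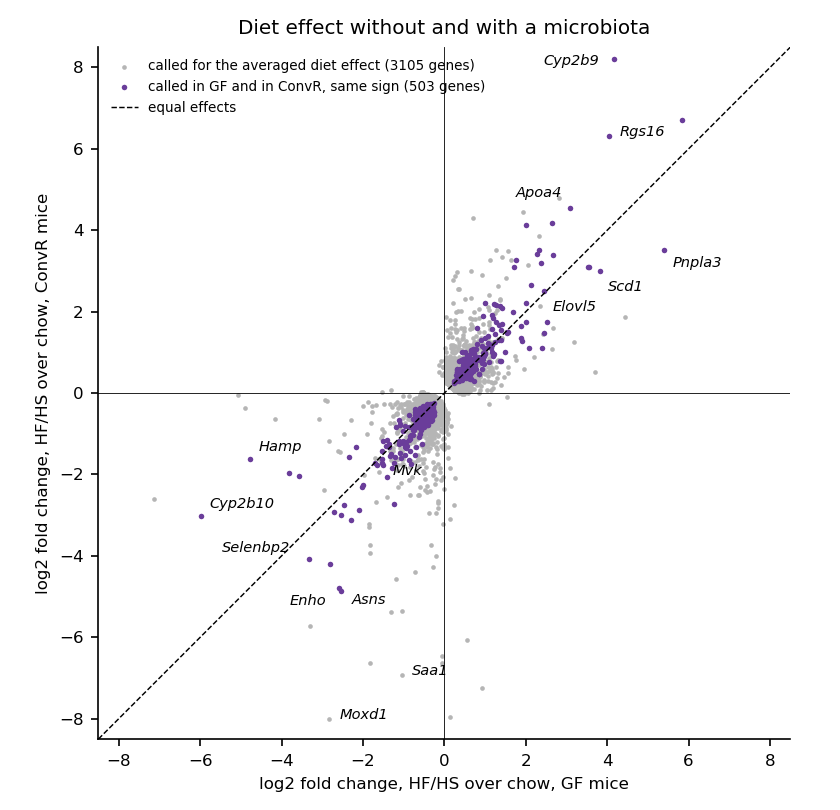
Log2 fold change of HF/HS over chow in GF mice (x axis) and in ConvR mice (y axis), n = 3 mice per group. Grey points are the 3105 genes called for the averaged effect, and purple points are the 503 called in both states with the same sign. Most points lie in the lower left and upper right fields, and Scd1, Elovl5 and Mvk lie near the line of equal effects while Saa1 and Moxd1 lie far below it.

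The 12 largest rises and the 12 largest falls were taken from called genes of at least 2 CPM whose diets did not overlap in either state, so for these 24 genes the lack of overlap was set by the choice and is a description. Lipid handling genes and secreted or signalling proteins were among the 12 rises. Scd1, the desaturase that makes monounsaturated fatty acids, had 729, 1273 and 1289 CPM in the GF chow mice and 17182, 16971 and 12237 in the GF HF/HS mice. In ConvR mice it had 2076, 1849.9 and 2211 CPM on chow and 15498, 25868 and 8053 on HF/HS. Every HF/HS liver was above every chow liver, and the averaged log2 fold change was 3.41 ± 0.30 (adjusted p = 8.92e-06), 3.82 without and 3.01 with microbes.

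Apoa4 encodes an apolipoprotein that the liver makes when it is loaded with fat. It had 61.5, 36.5 and 33.5 CPM on chow and 436, 362 and 311 on HF/HS in GF mice, and 87.8, 120.1 and 74.5 CPM on chow and 1665, 3581 and 1359 on HF/HS in ConvR mice. The HF/HS livers were above all chow livers in each state, and the ConvR HF/HS livers were the highest. The averaged log2 fold change was 3.81 ± 0.25 (adjusted p = 1.39e-06), and the effects of 3.08 and 4.55 gave an interaction interval of 0.51 to 2.43 (adjusted p = 0.238). Pnpla3, the lipid droplet protein whose variants are tied to fatty liver, had 0.0688, 0.4 and 0.29 CPM on chow and 18.3, 10.1 and 5.59 on HF/HS in GF mice. In ConvR mice it had 0.495, 0.301 and 0.724 CPM on chow and 3.54, 10.8 and 3.18 on HF/HS. The groups did not overlap in either state, the averaged log2 fold change was 4.45 ± 0.47 (adjusted p = 4.18e-05), and the GF chow value rests on 14 reads in all.

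Rgs16, a brake on G protein signalling, had 6.47, 4.28 and 1.74 CPM in GF chow livers and 53.5, 107 and 40.9 in GF HF/HS livers, and 0.715, 0.181 and 0.784 CPM on chow and 33.8, 73.8 and 29 on HF/HS in ConvR livers. It rose in both states, by 4.05 and 6.32 on the log2 scale (averaged 5.18 ± 0.53, adjusted p = 3.57e-05). Fgf21, the liver hormone of fasting and of sugar or protein imbalance, had 1.03, 0.914 and 0.29 CPM on chow and 3.75, 2.79 and 2.1 on HF/HS in GF mice, and 0.275, 0.241 and 0.302 CPM on chow and 3.07, 8.36 and 3.28 on HF/HS in ConvR mice. The 2 diets again did not overlap, although the ConvR chow group had 14 reads in all, with an averaged log2 fold change of 3.06 ± 0.38 (adjusted p = 0.000138). Mfsd2a, a carrier of lysophospholipids, spanned 1.89 to 26.6 CPM over the chow livers and 42.2 to 227 over the HF/HS livers, with an averaged log2 fold change of 2.91 ± 0.46. GF chow mouse 1 was its highest chow liver, and without that mouse the value was 3.57. The other genes of the 12 with the largest rises were Cfd (complement factor D, 3.33 ± 0.53), Ntrk2 (the receptor for brain-derived neurotrophic factor, 3.09 ± 0.43), Atp2b2 (a calcium pump, 2.77 ± 0.21) and Vldlr (a lipoprotein receptor, 2.51 ± 0.33). These 4 were low, at 0 to 1.15, 0.193 to 0.66, 0.114 to 1.15 and 0.302 to 1.03 CPM on chow and 2.41 to 11.5, 0.578 to 12.1, 1.42 to 11.8 and 1.77 to 6.83 CPM on HF/HS. Cfd was 4.45 without ConvR chow mouse 3.

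Cyp2b9, a cytochrome P450 that female mouse livers express, had the highest averaged log2 fold change, 6.19 ± 1.06 (adjusted p = 0.00108). Its levels varied widely, from 0 to 2.03 CPM on chow to 3.75 to 59.3 on HF/HS. The ConvR chow group had 4 reads in all, so the size of that fold change depends on few counts, and limma-voom did not call the gene (adjusted p = 0.0896). Leaving out GF HF/HS mouse 3 gave 5.50 and leaving out ConvR chow mouse 3 gave 6.81. Reads of Cyp2b9 and of its close relatives can be assigned to each other, as for the other Cyp2b, Cyp2c and Cyp3a genes below.

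An amino acid enzyme, a liver peptide hormone and several P450 enzymes were among the 12 falls chosen by the same rule. Enho, which encodes the peptide adropin, had 38.7, 27.8 and 18.8 CPM on chow and 5.11, 4.1 and 4.95 on HF/HS in GF mice. In ConvR mice it had 38.4, 52.8 and 28.2 CPM on chow and 1.47, 0.841 and 1.96 on HF/HS. No HF/HS liver reached the lowest chow liver, and the averaged log2 fold change was -3.69 ± 0.23 (adjusted p = 1.39e-06), with effects of -2.58 and -4.79.

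Asns makes asparagine and is a standard target of ATF4. It had 2.68, 4.68 and 7.69 CPM on chow and 1.11, 0.841 and 0.64 on HF/HS in GF mice, and 20.1, 21.6 and 10.1 CPM on chow and 0.216, 0.841 and 0.728 on HF/HS in ConvR mice. It fell in both states, and its averaged log2 fold change was -3.70 ± 0.35 (adjusted p = 1.52e-05). Selenbp2, a selenium-binding protein that is abundant in male mouse liver, had 2970.4, 1816 and 2378 CPM on chow and 356, 198 and 161 on HF/HS in GF mice, and 1932, 1397 and 1804 CPM on chow and 51.5, 30.6 and 225 on HF/HS in ConvR mice. The averaged log2 fold change was -3.69 ± 0.42 (adjusted p = 8.37e-05). It was -4.35 without ConvR HF/HS mouse 3.

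The remaining genes of the 12 with the largest falls included the acute phase genes Saa1, Socs3 and Hamp, which are described with that list. Cyp2b10, the classic target of the drug-sensing receptor CAR, spanned 3.03 to 14.4 CPM on chow and 0.0525 to 1.99 on HF/HS, and the GF HF/HS group had 6 reads in all. Its averaged log2 fold change was -4.50 ± 0.62, and -5.11 without ConvR HF/HS mouse 1. The P450 genes Cyp2c69 (-2.90 ± 0.36) and Cyp2c40 (-2.81 ± 0.28) and the calpain Capn8 (-2.76 ± 0.37) were called lower in both states. Without ConvR chow mice 1 and 2 and GF chow mouse 1, Cyp2c40 was -2.10 and Capn8 was -2.06, and both remained called. Moxd1 (-5.42 ± 0.90) and Serpina1e (-2.78 ± 0.47) belong to the male-biased list below.

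**Figure D2:**
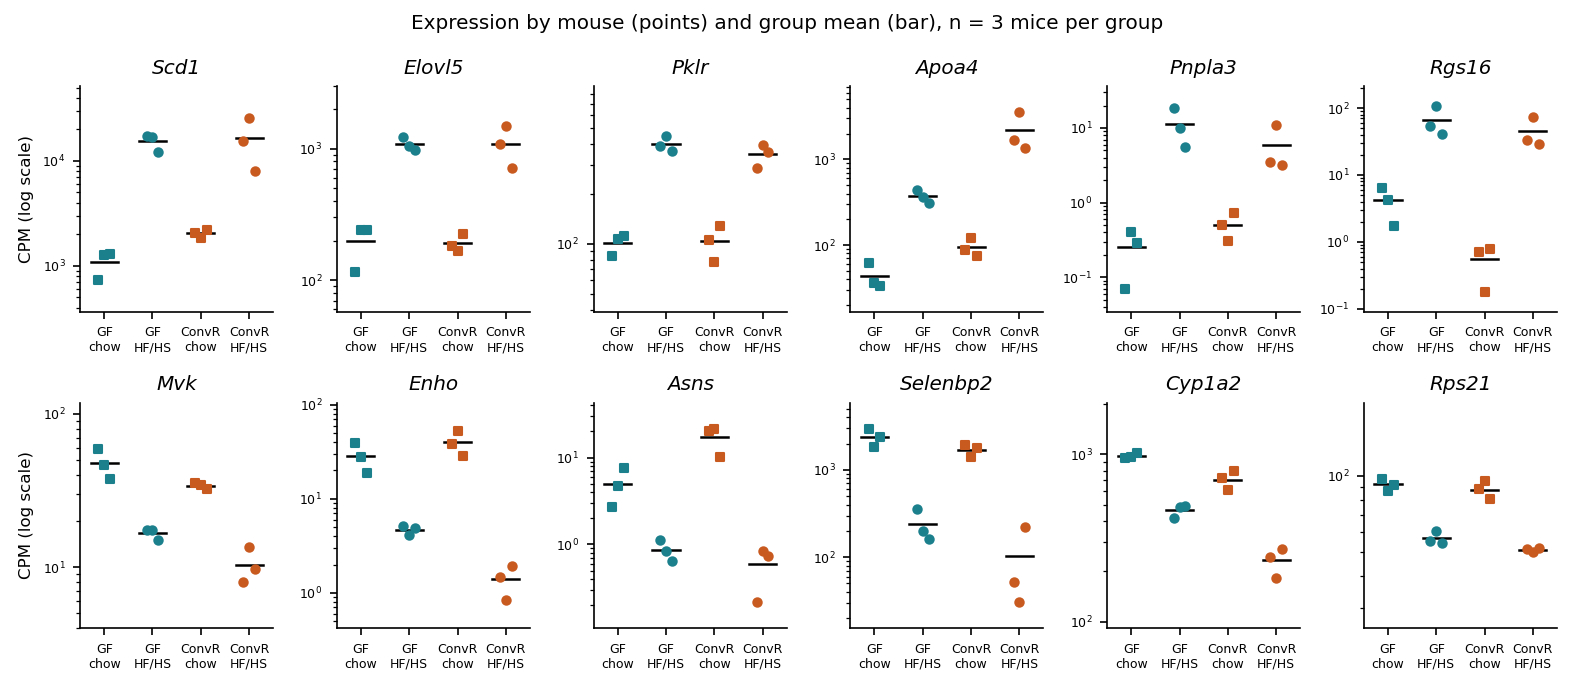
CPM of 12 named genes (log axis, its own range for each gene) in each mouse of the 4 groups; squares are chow, circles HF/HS, and bars are group means (n = 3 mice). The HF/HS mice do not overlap the chow mice in either state in these 12 genes, which the choice required for those named for the size of their change, from Scd1 (8053 to 25868 against 729 to 2211 CPM) to Rps21 (49.7 to 60.6 against 80.5 to 97.4 CPM).

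Most fatty acid synthesis genes rose. All 16 listed genes were tested, 11 were called higher and 0 lower in the average, 7 were called higher in both states (background 1.86%), and the median log2 fold change was 0.81 (0.93 in GF and 0.66 in ConvR mice), beside -0.013 over all genes tested. Without ConvR chow mice 1 and 2 the median was 0.86 in the average and 0.47 in ConvR mice. Pklr makes pyruvate from sugar and is a standard ChREBP target. It had 84.2, 106 and 111 CPM on chow and 389.6, 449 and 363 on HF/HS in GF mice, and 106, 77.5 and 128 CPM on chow and 289, 394 and 358 on HF/HS in ConvR mice. All HF/HS livers exceeded all chow livers, and the log2 fold change was 1.87 ± 0.16 (adjusted p = 6.77e-06, interaction interval -0.90 to 0.39). In GF mice 1 gene of the list was called lower, the transaldolase Taldo1 (-0.35 in GF, -0.15 in the average).

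Acaca, which makes malonyl-CoA, had 84.1, 85.6 and 82.3 CPM on chow and 192, 203 and 164 on HF/HS in GF mice, and 116, 88.2 and 85.3 CPM on chow and 185, 264 and 178 on HF/HS in ConvR mice. Its effects of 1.15 and 1.11 had an interaction interval of -0.52 to 0.45. The mitochondrial form Acacb rose by 1.59 ± 0.19, with 2.09 in GF and 1.10 in ConvR mice. Fasn, the fatty acid synthase itself, had 379, 375 and 303 CPM on chow and 799, 736 and 555 on HF/HS in GF mice, and 365, 308 and 378 CPM on chow and 688, 948 and 439 on HF/HS in ConvR mice. The groups did not overlap, and the log2 fold change was 0.98 in the average (SE 0.17, adjusted p = 0.00126) and was 0.99 in GF and 0.98 in ConvR mice. The genes for the 2 activators were not called, Srebf1 at 0.074 ± 0.21 and Mlxipl (ChREBP) at 0.031 ± 0.089.

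Desaturation and elongation genes, which turn palmitate and dietary fatty acids into longer and unsaturated ones, had 9 of 16 called higher and 2 lower, with a median of 0.61 (0.38 without ConvR HF/HS mouse 2). Elovl5, an elongase of polyunsaturated fatty acids, had 115, 239 and 239.8 CPM on chow and 1228, 1053 and 976 on HF/HS in GF mice, and 182, 168 and 224 CPM on chow and 1078, 1500.5 and 709.9 on HF/HS in ConvR mice. The diets did not overlap, and effects of 2.45 and 2.52 had an interaction interval of -0.80 to 0.93 (averaged 2.49 ± 0.21, adjusted p = 7.94e-06). Elovl2, which acts after Elovl5, had 283, 365 and 306 CPM on chow and 987, 942 and 848 on HF/HS in GF mice, and 235, 246 and 311 CPM on chow and 677, 866 and 664 on HF/HS in ConvR mice. Its interval was narrower, -0.48 to 0.35, around effects of 1.54 and 1.48 (averaged 1.51 ± 0.10, adjusted p = 1.39e-06). The delta-6 desaturase Fads2 rose by 1.34 ± 0.14 and the delta-5 desaturase Fads1 by 0.94 ± 0.13. The 2 called lower were Ptplad1 (-0.17 ± 0.055) and Ptpla (-0.46 ± 0.16), which encode dehydratases of the elongation cycle.

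Cholesterol synthesis genes moved the other way. Of 26 listed genes 25 were tested, 0 were called higher and 17 lower, and the median was -0.56 (-0.47 in GF and -0.77 in ConvR mice). Without ConvR chow mice 1 and 2 the median was -0.59 in the average and -0.87 in ConvR mice. In 12 of the 25 the diets did not overlap in either state with HF/HS lower (background 7%), and 7 were called lower in both states (background 2.21%). To show the start regions of genes that moved together in both states, the promoters of Mvk and Idi1 from the falling list and of Elovl5 from the rising one are printed from RefSeq (GRCm38.p6, not the mm9 build of the files), 250 bases before to 50 after the start. Capitals mark CCAAT or its complement ATTGG, the box bound by NF-Y, and the E-box CACGTG, a palindrome bound by USF.
Mvk, chr5:114444019-114444318 (+): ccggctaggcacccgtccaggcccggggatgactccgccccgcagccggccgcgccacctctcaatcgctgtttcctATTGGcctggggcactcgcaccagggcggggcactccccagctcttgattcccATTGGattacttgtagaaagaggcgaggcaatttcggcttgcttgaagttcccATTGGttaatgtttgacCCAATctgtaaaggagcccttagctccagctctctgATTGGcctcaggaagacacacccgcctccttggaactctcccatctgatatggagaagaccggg
Idi1, chr13:8885356-8885655 (+): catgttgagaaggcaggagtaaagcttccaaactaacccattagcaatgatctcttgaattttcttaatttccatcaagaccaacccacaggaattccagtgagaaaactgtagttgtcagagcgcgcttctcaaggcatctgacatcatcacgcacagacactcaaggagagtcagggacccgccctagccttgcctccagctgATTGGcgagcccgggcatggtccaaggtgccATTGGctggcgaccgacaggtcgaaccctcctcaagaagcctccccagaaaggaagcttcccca
Elovl5, chr9:77917115-77917414 (+): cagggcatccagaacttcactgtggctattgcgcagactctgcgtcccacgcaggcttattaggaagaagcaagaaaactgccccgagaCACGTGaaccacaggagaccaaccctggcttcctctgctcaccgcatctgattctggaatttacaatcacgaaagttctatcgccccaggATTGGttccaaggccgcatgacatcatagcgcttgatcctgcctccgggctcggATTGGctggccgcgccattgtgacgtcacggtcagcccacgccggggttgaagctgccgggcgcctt

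The Mvk window held 5 CCAAT boxes and no E-box, the Idi1 window 2 and none, and the Elovl5 window 2 and 1. Searched on both strands, CCAAT was present in 17 of the 18 cholesterol genes with a window (94.4%), in 13 of 16 fatty acid synthesis genes (81.2%) and in 5 of 11 desaturation and elongation genes (45.5%). It was present in 18 of 59 cytosolic ribosomal protein genes (30.5%) and in 41.1% of all 27025 genes with a window. CACGTG was present in 4 of 18, 2 of 16, 2 of 11 and 6 of 59 genes of these lists and in 8.1% of all genes. The 2 motifs cannot overlap each other, and a match is a description of the window.

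Mvk, the mevalonate kinase, had 59.2, 46.7 and 37.4 CPM on chow and 17.4, 17.4 and 15 on HF/HS in GF mice. In ConvR mice it had 35.4, 34.2 and 32.4 CPM on chow and 7.99, 13.5 and 9.69 on HF/HS. No HF/HS liver reached a chow liver, and the log2 fold change was -1.62 ± 0.13 (adjusted p = 4.42e-06), -1.52 and -1.71 by state with an interaction interval of -0.72 to 0.34.

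Sc4mol (Msmo1), the sterol C4-methyl oxidase, had 234, 283 and 322 CPM on chow and 125, 118 and 114 on HF/HS in GF mice, and 235, 234 and 240.0 CPM on chow and 49, 98.8 and 66.8 on HF/HS in ConvR mice. Idi1, which isomerises isopentenyl diphosphate, had 481, 434 and 388 CPM on chow and 209, 199 and 154 on HF/HS in GF mice and 341, 277 and 393 CPM on chow and 63.2, 169 and 107 on HF/HS in ConvR mice. Fdft1, the squalene synthase, ranged over 141 to 209.6 CPM on chow and 50.8 to 119 on HF/HS. All 3 were lower on HF/HS without overlap, with log2 fold changes of -1.48 ± 0.13 for Sc4mol, -1.40 ± 0.18 for Idi1 and -1.0 ± 0.13 for Fdft1. The regulator Srebf2 fell by 0.43 ± 0.074.

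**Figure D3:**
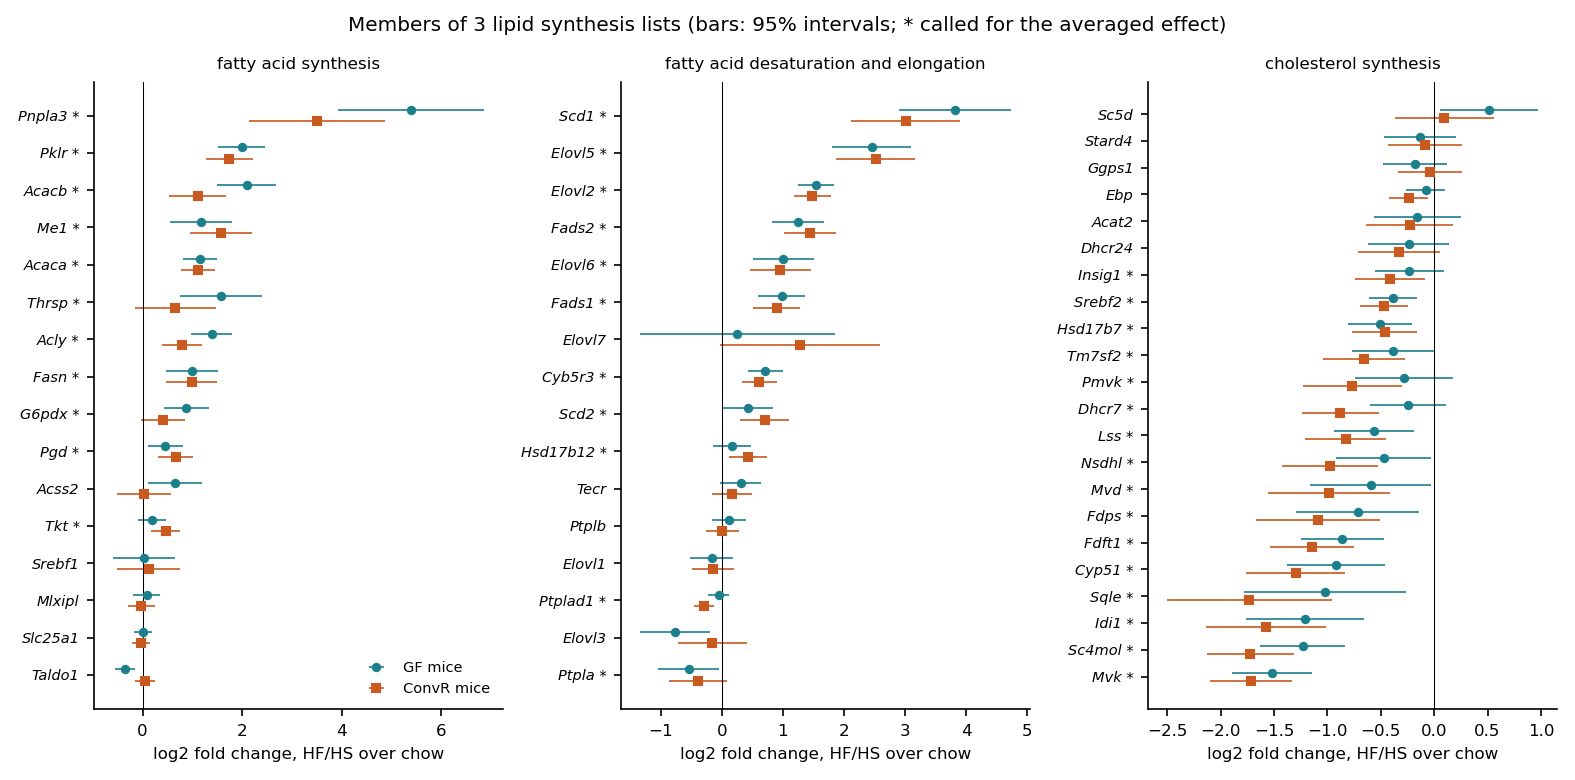
Log2 fold change of HF/HS over chow in GF (teal) and ConvR (orange) mice with 95% intervals for 16, 16 and 22 tested members of 3 lists, n = 3 mice per group; an asterisk marks a call for the averaged effect. Of the members drawn, fatty acid synthesis has 11 called higher, desaturation and elongation 9 called higher and 2 lower, and cholesterol synthesis 16 called lower.

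Many fatty acid oxidation and ketogenesis genes were called higher in the average, 16 of 34 with 2 lower (median 0.22). In GF mice 2 were called higher and in ConvR mice 18, a difference that was not tested over the list. The median was 0.0082 in GF and 0.44 in ConvR mice, and the ConvR median was 0.18 without ConvR chow mice 1 and 2. Leaving out ConvR chow mice 1 and 2, 7 were called higher and 2 lower and the median was 0.099. The 2 called lower in the average were Acaa1a (-0.48 ± 0.10), a peroxisomal thiolase, and Etfb (-0.40 ± 0.11), an electron carrier. Cpt1a, the gate for fatty acid entry into mitochondria, moved alike in both states. It had 319.6, 315 and 263 CPM on chow and 497, 459.8 and 490.0 on HF/HS in GF mice, and 279, 248 and 229.7 CPM on chow and 502, 571 and 433 on HF/HS in ConvR mice. The diets did not overlap, the log2 fold change was 0.84 ± 0.082 (adjusted p = 2.23e-05) and the interaction interval was -0.048 to 0.65. The dehydrogenase Acadl rose by 0.41 ± 0.072 and the carnitine acetyltransferase Crat by 0.79 ± 0.15. The GF effects of these 2 (0.23 and 0.56) did not pass the test by themselves.

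PPAR alpha targets outside the oxidation pathway had 11 of 24 tested genes called higher and 1 lower, of 26 listed. The median was 0.59, with 0.13 in GF and 0.88 in ConvR mice, and 0.38 without ConvR chow mice 1 and 2. The 1 called lower was the peroxisomal thioesterase Acot8 (-0.25 ± 0.084). The receptor gene Ppara had 144, 195 and 216 CPM on chow and 383, 330.3 and 353 on HF/HS in GF mice, and 223, 166 and 207 CPM on chow and 356, 411 and 294 on HF/HS in ConvR mice. It was higher in every HF/HS liver, by 0.89 ± 0.11 (adjusted p = 0.000151, interaction interval -0.58 to 0.36). Vnn1, a pantetheinase and PPAR alpha target, rose by 1.72 ± 0.20, from 21.3 to 54.8 CPM on chow to 60.8 to 203 on HF/HS. Mgll, the monoglyceride lipase, rose by 0.51 ± 0.10 in the average, with 0.13 in GF (adjusted p = 0.599) and 0.89 in ConvR mice. Cyp4a14, an omega-hydroxylase of fatty acids, had 97.1, 184 and 247 CPM on chow and 196, 254 and 553 on HF/HS in GF mice and 48.7, 31.3 and 229 CPM on chow and 811, 937 and 564 on HF/HS in ConvR mice. The GF groups overlapped, and its call (1.92 ± 0.47, adjusted p = 0.00925) ended without ConvR chow mice 1 and 2 (1.34, adjusted p = 0.0599). Without ConvR chow mouse 3 it was 2.60.

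Lipid droplet and PPAR gamma genes had 11 of 20 tested members called higher and 0 lower, of 21 listed, with a median of 0.50 (0.16 in GF and 0.72 in ConvR mice), and 0.32 without ConvR HF/HS mouse 2. Cd36, which takes up fatty acids, had 32.4, 44.7 and 62 CPM on chow and 90.3, 82 and 106 on HF/HS in GF mice, and 46.6, 32.1 and 56.1 CPM on chow and 209.7, 295 and 122 on HF/HS in ConvR mice. The diets did not overlap in either state (averaged 1.61 ± 0.21, adjusted p = 0.000183). Its effects were 1.00 in GF and 2.22 in ConvR mice, with an interaction interval of 0.35 to 2.09 (adjusted p = 0.27). Plin4 (1.51 ± 0.23) and Plin2 (0.63 ± 0.12), coat proteins of lipid droplets, and Hsd17b13 (0.62 ± 0.10), a droplet enzyme, also rose. The Plin2 effect was 0.23 in GF (adjusted p = 0.392) and 1.02 in ConvR mice. Pparg itself was not called (0.49 ± 0.25). Of the 5 adipocyte markers tested, Cfd, Fabp4 (0.87 ± 0.18) and Cidec (2.50 ± 0.53) were called higher, while Adipoq, Lep, Retn, Plin1 and Slc7a10 were under 1 TPM in all libraries. A marker that passes the filter only through its HF/HS level had to be higher, so this is a description.

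Triglyceride synthesis and lipoprotein genes had 6 of 23 called higher and 1 lower (30.4%, beside 25.1% of all tested genes), with a median of 0.25 that was 0.12 without ConvR chow mice 1 and 2 and 0.17 without GF chow mouse 3. Apoc2, the cofactor of lipoprotein lipase, had 114, 121 and 127 CPM on chow and 221, 206 and 199 on HF/HS in GF mice, and 117, 130.1 and 104 CPM on chow and 367, 402 and 284 on HF/HS in ConvR mice. All HF/HS livers were above all chow livers, and the averaged log2 fold change was 1.19 ± 0.088 (adjusted p = 4.35e-06). Gpam, which adds the first fatty acid to glycerol phosphate, rose by 0.85 ± 0.13 with effects of 0.98 and 0.71. The phospholipid transfer protein Pltp rose by 1.42 ± 0.26. The 1 gene called lower was Lpin3 (-0.27 ± 0.093), a phosphatidate phosphatase.

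Glycolysis and fructose genes had 10 of 22 called higher and 1 lower, with nearly equal medians of 0.26 in GF and 0.30 in ConvR mice. The averaged median of 0.25 was 0.17 without ConvR chow mice 1 and 2. Sucrose is split into glucose and fructose, and Khk is the first enzyme of fructose use. It had 318, 243 and 279 CPM on chow and 436, 489 and 456 on HF/HS in GF mice, and 242, 224 and 289 CPM on chow and 449, 423 and 422 on HF/HS in ConvR mice. The diets did not overlap, and the effects of 0.72 and 0.78 had an interaction interval of -0.34 to 0.45 (averaged 0.75 ± 0.092, adjusted p = 0.000145). Gpi1, the phosphoglucose isomerase, rose by 0.71 ± 0.07 and the pyruvate dehydrogenase kinase Pdk2 by 0.49 ± 0.07, both called in each state. Akr1b3, the aldose reductase, was the 1 called lower (-0.36 ± 0.094).

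Gluconeogenesis and glycogen genes had 10 of 18 called higher and 0 lower, with medians of 0.26 in GF and 0.53 in ConvR mice. Pcx, the pyruvate carboxylase, had 507, 399 and 425 CPM on chow and 602, 569 and 607 on HF/HS in GF mice and 409, 422 and 357 CPM on chow and 747, 706 and 639 on HF/HS in ConvR mice. Fbp1, the fructose bisphosphatase, had 484, 556 and 655 CPM on chow and 798, 791 and 844 on HF/HS in GF mice and 594, 683 and 575 CPM on chow and 905, 826 and 857 on HF/HS in ConvR mice. Both were higher on HF/HS without overlap, by 0.62 ± 0.084 and 0.50 ± 0.085. The glycogen genes Gbe1 (branching enzyme, 0.86 ± 0.12) and Ugp2 (UDP-glucose synthesis, 0.90 ± 0.15) rose in both states as well. Pck1, the enzyme most often used as a readout of gluconeogenesis, was not called (0.29 ± 0.41, adjusted p = 0.645). Its chow levels were uneven, 5457, 1369 and 1031 CPM in GF and 2175, 1918 and 344 CPM in ConvR mice, and its HF/HS levels were 2062 to 3115 CPM. Without ConvR chow mice 1 and 2 and GF chow mouse 1 it was called higher (1.91, adjusted p = 7.19e-05).

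Amino acid genes showed no common direction. In the urea cycle and amino acid breakdown list 4 of 42 were called higher and 5 lower (21.4% in all, under the 25.1% of all tested genes), with a median of -0.012. Glul (glutamine synthetase, 0.40 ± 0.067), Uroc1 (histidine breakdown, 0.47 ± 0.08) and Kynu (tryptophan breakdown, 0.28 ± 0.067) rose and Prodh (proline breakdown, -0.41 ± 0.10) fell, but Prodh was not called in log2(TPM + 1) values (adjusted p = 0.131). The other called genes were Gpt2 (0.33 ± 0.093), Arg1 (-0.39 ± 0.10), Gpt (-0.32 ± 0.10), Agxt (-0.43 ± 0.15) and Ivd (-0.32 ± 0.079), of which Gpt2 was higher. In the integrated stress response list, which holds the targets of ATF4 induced by amino acid shortage, 5 of 19 tested genes (20 listed) were called higher and 2 lower. The 2 lower were Asns and Atf4, and Atf4 had 170.1, 124 and 117 CPM on chow and 79.4, 76.9 and 85.6 on HF/HS in GF mice and 75.4, 94.9 and 113 CPM on chow and 55.4, 56.9 and 71.1 on HF/HS in ConvR mice. It fell by 0.70 ± 0.12 (adjusted p = 0.000993) with an interaction interval of -0.36 to 0.64. Sesn2, an inhibitor of mTORC1 signalling, rose by 0.85 ± 0.10 from 4.4 to 6.24 CPM on chow to 7.74 to 9.84 on HF/HS, and Vldlr was described above. The others called higher were Atf5 (0.39 ± 0.091), Trib3 (1.00 ± 0.20) and Nupr1 (0.89 ± 0.23). The list's median was 0.09, and 0.31 without ConvR chow mice 1 and 2 and GF chow mouse 1.

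Bile acid synthesis genes were called in both directions, 2 of 15 tested higher and 5 lower, of 16 listed. When ConvR chow mice 1 and 2 were left out, 2 were called higher and 8 lower. Cyp7a1 is the rate-limiting enzyme of the classic route, and its product pool is reshaped by gut bacteria. It had 20.0, 37.6 and 39.6 CPM on chow and 17.2, 25.1 and 20.3 on HF/HS in GF mice and 49.8, 38 and 74.7 CPM on chow and 12.4, 23.7 and 16.6 on HF/HS in ConvR mice. The GF groups overlapped and the ConvR groups did not, and the averaged fall was 1.13 ± 0.21 (adjusted p = 0.00198), -0.64 in GF (adjusted p = 0.192) and -1.63 in ConvR mice.

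Cyp7b1, the oxysterol 7-alpha-hydroxylase of the alternative route, had 379, 381 and 490.0 CPM on chow and 208, 161 and 144 on HF/HS in GF mice and 490.2, 423 and 357 CPM on chow and 93.6, 56.1 and 205 on HF/HS in ConvR mice. It fell without overlap, by 1.56 ± 0.25. Cyp39a1, which hydroxylates 24-hydroxycholesterol, went the other way, from 1.31 to 11.1 CPM on chow to 11.4 to 24.7 on HF/HS (1.76 ± 0.15, adjusted p = 8.64e-06). Cyp46a1, which makes that oxysterol, rose by 2.17 ± 0.33 at low levels (0.33 to 0.774 CPM on chow and 1.26 to 5.84 on HF/HS). Cyp27a1 (-0.20 ± 0.058), Amacr (-0.30 ± 0.085) and Acot8 were the other genes called lower. Of the bile transport, sterol efflux and FXR list 6 of 21 tested genes (23 listed) were called higher and 2 lower, with medians of 0.22 and 0.24. Slc10a1, the bile acid uptake carrier NTCP, had 221 to 489 CPM on chow and 522 to 818 on HF/HS and rose by 0.73 ± 0.16. Mylip, a ubiquitin ligase, rose by 0.66 ± 0.12 with effects of 0.64 and 0.68, and Klb, the co-receptor of FGF15 and FGF21, by 0.54 ± 0.11. The 2 called lower were Nr1h4 (-0.31 ± 0.088), which encodes the bile acid receptor FXR, and Fgfr4 (-0.40 ± 0.11), the receptor that answers to FGF15. The Nr1h4 call ended without ConvR chow mice 1 and 2 (-0.34, adjusted p = 0.0598). The phospholipid pump Abcb4 averaged 0.42 ± 0.07, but its effect was 0.016 in GF and 0.82 in ConvR mice (interaction interval 0.50 to 1.10, adjusted p = 0.0503).

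More drug metabolism genes were called lower than higher. Targets of CAR and PXR had 2 of 20 tested genes (25 listed) called higher and 8 lower, with medians of -0.43 in GF and -0.58 in ConvR mice. Cyp2c29 had 1375, 2350.2 and 2356 CPM on chow and 928, 1114 and 1343 on HF/HS in GF mice and 1686, 1738 and 2022 CPM on chow and 752, 522 and 748 on HF/HS in ConvR mice, and it fell by 1.14 ± 0.15 (adjusted p = 0.000184). Cyp2c70, which makes muricholic acids, fell by 1.25 ± 0.16 with -0.97 and -1.53 by state. Cyp2c38 (1.75 ± 0.20) and Cyp2b9 were the 2 called higher. Cyp3a11, the main PXR target, lay on opposite sides in the 2 states, with 355, 380.5 and 762 CPM on chow and 826, 1004 and 995 on HF/HS in GF mice and 1505, 1941 and 3679.9 CPM on chow and 815, 1146 and 734 on HF/HS in ConvR mice, and it was not called in the average (-0.24 ± 0.23, adjusted p = 0.461). Its averaged sign was not stable. In log2(TPM + 1) values it was 0.061, and without ConvR chow mice 1 and 2 and GF chow mouse 1 it was called lower (-0.65, adjusted p = 0.0351).

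Targets of the aryl hydrocarbon receptor, a sensor of dietary and microbial indoles, had 2 of 8 tested genes (10 listed) called lower. That is 25%, beside 25.1% of all tested genes, so the list was called about as often as genes in general. The 2 were Cyp1a2 and Cyp1a1. Cyp1a2 had 953, 969 and 1017 CPM on chow and 414, 484 and 494 on HF/HS in GF mice, and 717, 608 and 795 CPM on chow and 244, 183 and 272 on HF/HS in ConvR mice. No HF/HS liver reached a chow liver, and the fall was 1.34 ± 0.10 (adjusted p = 4.35e-06; interaction interval -0.94 to -0.10). Cyp1a1 was scarce, at 0.895 to 1.87 CPM on chow and 0.368 to 0.821 on HF/HS, and fell by 1.34 ± 0.20, with -1.36 and -1.32 by state. Tiparp (-0.44 ± 0.18) and the receptor gene Ahr (-0.33 ± 0.20) were not called. Both were called lower without ConvR chow mouse 3 (adjusted p = 0.0333 and 0.0436), Tiparp also without GF chow mouse 3 (adjusted p = 0.0267), and Ahr was 0.078 without ConvR chow mice 1 and 2. NRF2 targets and conjugation enzymes had 2 of 32 called higher and 7 lower, with a median of -0.13. That is 28.1% called in all, close to the 25.1% of all tested genes. In log2(TPM + 1) values, where 90.7% of all calls were higher, 7 of the list were called higher and 3 lower. In a fit that left out ConvR chow mice 1 and 2, 0 were called higher and 14 lower. Gstp1 had 1452, 1385 and 2046 CPM on chow and 623, 568 and 484 on HF/HS in GF mice, and 1702, 1875 and 2714 CPM on chow and 458, 451 and 1136 on HF/HS in ConvR mice, and fell by 1.58 ± 0.22 with -1.54 and -1.62 by state. Its near-identical neighbour Gstp2 (-1.98 ± 0.29) can share reads with it. Sult1a1, a sulfotransferase, was called higher (0.32 ± 0.093). Ugt2b35 fell by 0.74 ± 0.16, and Nfe2l2, which encodes NRF2, was 0.30 ± 0.067 with a call that ended without ConvR chow mice 1 and 2 (0.26, adjusted p = 0.0518).

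Genes that differ between the sexes in mouse liver under growth hormone control were among those called, although all mice were male. Of 20 male-biased genes 9 were called lower and 1, Mup21 (0.49 ± 0.16), higher, 50% in all beside 25.1% of all tested genes. In GF mice 2 were called lower and in ConvR mice 9, a difference that was not tested over the list. The medians were -0.49 in GF and -0.999 in ConvR mice, and the ConvR median was -0.985 without ConvR chow mice 1 and 2. Moxd1, a monooxygenase-like protein, had 178, 86 and 130.3 CPM on chow and 41.4, 9.04 and 4.54 on HF/HS in GF mice, and 354, 329 and 27.1 CPM on chow and 0.0864, 0 and 2.64 on HF/HS in ConvR mice. It was lower in every HF/HS liver within each state, and the averaged effect was -5.42 ± 0.90 (adjusted p = 0.000963). The GF effect of -2.83 did not pass the test alone (adjusted p = 0.107). Its size depended on single mice. It was -3.85 without ConvR chow mice 1 and 2, -6.13 without GF HF/HS mouse 1 and -7.48 without ConvR HF/HS mouse 3.

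Serpina1e, an alpha-1-antitrypsin copy whose reads can be shared with its paralogs, had 10786 to 18222 CPM on chow and 164 to 4429 on HF/HS, and without ConvR HF/HS mouse 3 its value was -3.58. Susd4, a complement regulator, fell by 1.14 ± 0.15 from 26.2 to 42.8 CPM on chow to 5.49 to 25.3 on HF/HS. Gstp1 and Cyp7b1, described above, are male-biased as well. Of 17 female-biased genes 6 had enough reads to be tested, and 4 of these were called higher and 0 lower. A gene that passes only through its HF/HS level had to be higher, so this count is a description. Besides Cyp2b9 they were Abcd2 (a peroxisomal fatty acid transporter, 1.72 to 8.56 CPM on chow, 10.7 to 36.2 on HF/HS, 2.10 ± 0.39), Acot3 and Hao2. Acot3, a peroxisomal thioesterase, averaged 2.40 ± 0.56, with 1.28 in GF (adjusted p = 0.304), and its call ended without ConvR chow mice 1 and 2 (1.83, adjusted p = 0.0801). It was 3.01 without ConvR chow mouse 3. Hao2, a peroxisomal hydroxy acid oxidase, had 2 and 1 reads in the GF and ConvR chow groups and 17 and 47 in the HF/HS groups, too few for a fold.

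Acute phase genes, which the liver makes in inflammation, were lower in the average but unevenly so. Of 29 tested genes (30 listed) 19 were called lower and 0 higher (median -1.15), with a median of -0.069 and 2 lower calls in GF mice against -2.10 and 25 in ConvR mice. Saa1 had 114, 39 and 43.7 CPM on chow and 29.1, 34.1 and 31.8 on HF/HS in GF mice, and 11213, 14534 and 789 CPM on chow and 59.4, 89.6 and 70.8 on HF/HS in ConvR mice. The high values were those of ConvR chow mice 1 and 2. Without them the list's median was -0.33, with 11 called lower, and Saa1 went from -3.98 to -2.24. Saa2 went from -3.90 to -2.16 and Orm2 from -3.26 to -1.53, and their GF effects were 0.15 and -0.056. In an additive model of status and diet without an interaction term, neither was called (Saa2 -4.07, adjusted p = 0.172, and Orm2 -3.45, adjusted p = 0.103). Saa1 and Saa2 are near-identical and can share reads. Socs3, the feedback inhibitor of IL-6 signalling, averaged -3.51 ± 0.57, and was -2.17 without the same mice and -2.85 without GF chow mouse 1. The neutrophil markers moved with this list, and their part in it was not tested.

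Hamp, which encodes the iron hormone hepcidin, and Socs3 were the 2 acute phase genes called lower in both states. Hamp had 168, 276 and 178 CPM on chow and 15.3, 4.41 and 2.97 on HF/HS in GF mice, and 287, 638 and 839 CPM on chow and 217, 96.8 and 260.4 on HF/HS in ConvR mice. The GF HF/HS livers were the lowest, and the averaged log2 fold change was -3.19 ± 0.39 (adjusted p = 0.000143), -4.77 in GF and -1.62 in ConvR mice. Neutrophil markers had 4 of 6 tested genes called lower and 0 higher, of 12 listed. The medians were -1.28 in GF mice, where 0 were called, and -3.25 in ConvR mice. Prtn3 had 14 and 771 reads in the GF and ConvR chow groups and 29 and 6 in the HF/HS groups. A gene that passes the filter only through its ConvR chow level had to be lower, so this count is a description. The summed level of 11 neutrophil markers was 6.60 to 36.04 TPM in all GF livers and the ConvR HF/HS livers, and 19.38 to 145.3 TPM in ConvR chow livers. In bulk tissue fewer cells of a type and less RNA per cell cannot be told apart, here and for the endothelial markers below. The granule genes Mpo, Elane, Camp, Ngp and Ltf were under 1 TPM in every library. Without ConvR chow mice 1 and 2, S100a8 was -1.42 in place of -2.57, and the calls of S100a9 (-2.54 to -1.42, adjusted p = 0.0937), Retnlg (-2.88 to -1.40, adjusted p = 0.27) and Prtn3 (-3.16 to -1.55, adjusted p = 0.127) ended. The Retnlg call also ended without GF chow mouse 1 (-2.37, adjusted p = 0.0516), and that of Prtn3 ended in 9 of the 12 settings that left out 1 mouse.

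Immediate early genes, which respond within minutes to stimuli, were called lower mainly in GF mice, 10 of 23 with none in ConvR mice, and the difference of these counts was not tested. In the average 8 were called lower and 1 higher, and the median was -1.35 in GF and -0.047 in ConvR mice. Without GF chow mouse 1, 4 were called lower in GF mice and the GF median was -0.46. Egr1 had 302, 109 and 54.2 CPM on chow and 10.1, 7.99 and 8.03 on HF/HS in GF mice, and 10.2, 9.64 and 5.31 CPM on chow and 4.28, 7.37 and 4.5 on HF/HS in ConvR mice, with an averaged -2.40 ± 0.42 that was -1.60 without the 3 chow mice that stood apart. Ier2 averaged -1.48 ± 0.27. Junb averaged -2.66 ± 0.56, was -1.85 without GF chow mouse 1 and was not called without ConvR chow mice 1 and 2 (-1.44, adjusted p = 0.12). Nr4a2, the 1 gene called higher (1.56 ± 0.38), lost its call without the same mice (adjusted p = 0.117) and in the additive model (1.14, adjusted p = 0.102). The list's median went from -0.90 to -0.35 without GF chow mouse 1 and to 0.064 without all 3, so its direction turned with these livers. Omitting ConvR chow mice 1 and 2 alone, 3 were called lower and 0 higher.

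**Figure D4:**
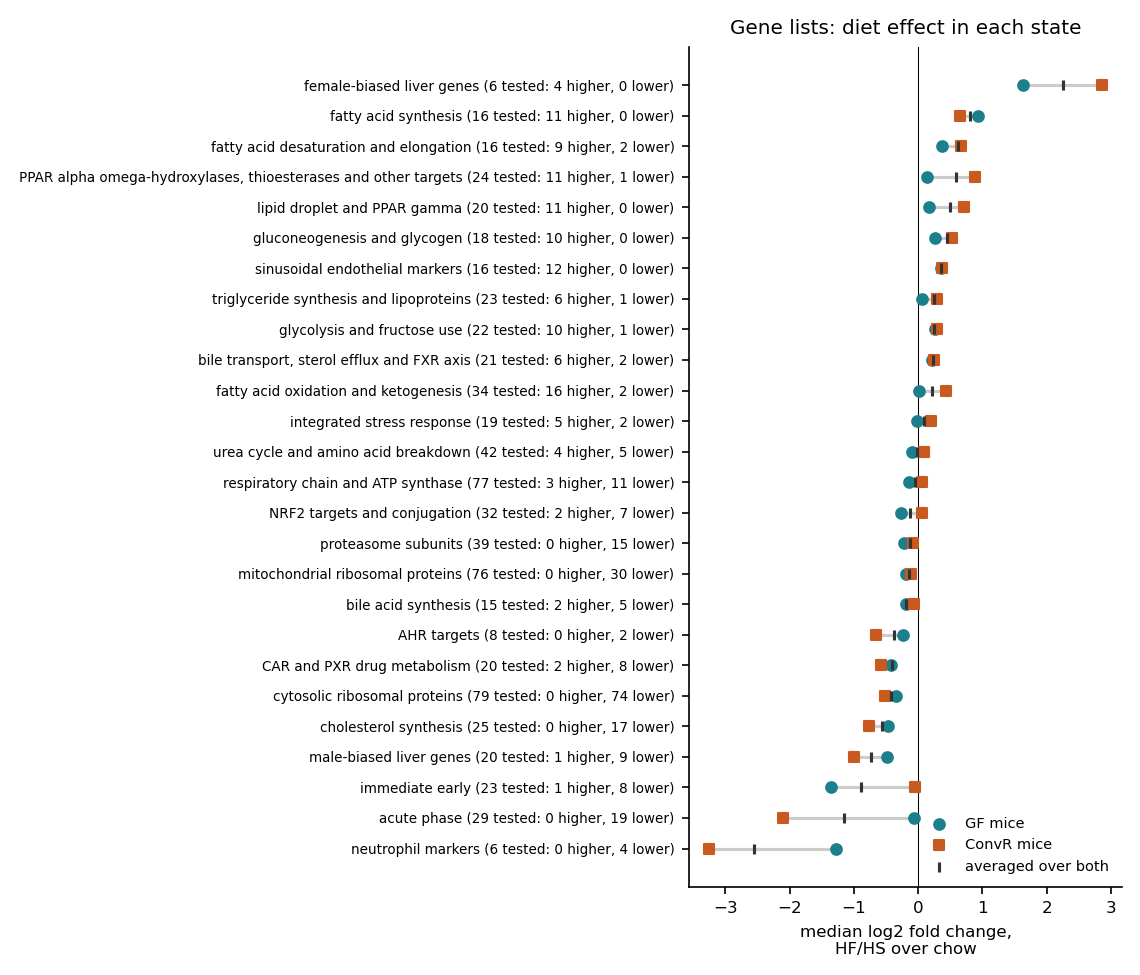
Median log2 fold change of HF/HS over chow over the tested members of 26 gene lists in GF (circles) and ConvR (squares) mice and in the average (ticks); the labels give tested members and averaged calls. Fatty acid synthesis and cholesterol synthesis lie on opposite sides of 0 in both states, while acute phase genes lie at -0.069 in GF and -2.10 in ConvR mice and immediate early genes show the reverse order.

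Cytosolic ribosomal protein genes had the highest share of calls among the 48 lists. Of 79 tested genes (80 listed) 74 were called lower and 0 higher, with medians of -0.35 in GF and -0.52 in ConvR mice, and 44 were called lower in both states. The differences were small. Rps21 had 97.4, 87.2 and 92.2 CPM on chow and 55.2, 60.6 and 54 on HF/HS in GF mice, and 88.8, 95 and 80.5 CPM on chow and 51.2, 49.7 and 51.6 on HF/HS in ConvR mice. The diets were far apart for their spread, with -0.75 ± 0.059 in the average (adjusted p = 4.42e-06) and an interaction interval of -0.34 to 0.16. Rpl12 fell by 0.73 ± 0.06, Rps10 by 0.64 ± 0.053 and Rps12 by 0.60 ± 0.055, each in both states.

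These genes are short, and short genes had lower fold changes than long ones. The median length was 1890 bases for genes called lower, 3865 for genes called higher and 2790 for all tested genes, and the averaged fold change had a rank correlation of 0.305 with length over genes. From the shortest to the longest of 10 bins of equal gene number the median log2 fold change went from -0.187 to 0.122. With the length trend removed, 2661 genes were called for the averaged effect and 298 in both states with the same sign. The ribosomal list then had 48 genes called lower and 1 higher and a median of -0.25. Fatty acid and cholesterol synthesis kept their side: 11 of 16 fatty acid synthesis genes were called higher and 16 of 25 cholesterol synthesis genes lower. What the length trend itself came from was not tested.

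Other lists of short genes also shifted with length. Mitochondrial ribosomal protein genes had 30 of 76 called lower and 0 higher (median -0.15), led by Mrps24 (-0.56 ± 0.076), Mrpl20 (-0.33 ± 0.048), Mrpl52 (-0.56 ± 0.085) and Mrps34 (-0.41 ± 0.065). With the length trend removed 13 were called lower and 6 higher and the median was -0.031, and the Mrpl20 call ended (adjusted p = 0.137). In log2(TPM + 1) values the calls of Mrpl20 (-0.11, adjusted p = 0.139) and Mrps34 (-0.18, adjusted p = 0.0806) ended. Respiratory chain genes had 11 of 77 called lower and 3 higher, 18.2% in all, under the 25.1% of all tested genes. With length removed 2 were called lower and 29 higher, so the direction of this list turned with that setting. The 3 called higher at first were Ndufa10 (0.24 ± 0.07), Sdha (0.32 ± 0.083) and Cox7a1 (0.81 ± 0.24). Without ConvR chow mice 1 and 2 and GF chow mouse 1, 18 were called lower and 1 higher. Atp5e (-0.53 ± 0.09), Ndufs7 (-0.42 ± 0.083), Ndufa2 (-0.48 ± 0.10) and Ndufb2 (-0.36 ± 0.078) led it, and the calls of Ndufa2 and Ndufb2 ended with length removed (adjusted p = 0.0682 and 0.384). The Ndufs7 call ended in log2(TPM + 1) values (-0.18, adjusted p = 0.112). Proteasome genes had 15 of 39 called lower and 0 higher, and 5 lower and 1 higher with length removed. Among them Psmb4 (-0.51 ± 0.066), the activator subunits Psme1 (-0.45 ± 0.07) and Psme2 (-0.42 ± 0.068) and the immunoproteasome subunit Psmb10 (-0.51 ± 0.085) had the smallest adjusted p-values.

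**Figure D5:**
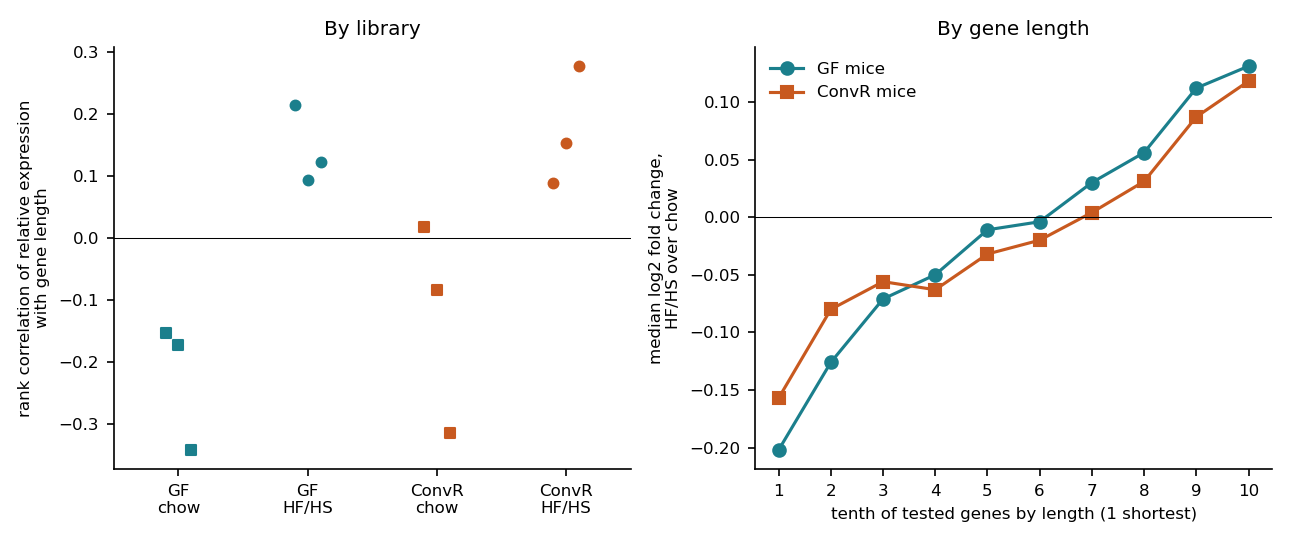
Left, rank correlation between gene length and expression relative to the mean library, for each library by group (squares chow, circles HF/HS, n = 3 mice); right, median log2 fold change of HF/HS over chow in 10 bins of the 12377 tested genes by length, in GF and ConvR mice. The HF/HS libraries lie at 0.089 to 0.277 and the chow libraries at -0.341 to 0.018, and in both states the medians go from below 0 in the bin of the shortest genes to above 0 in that of the longest.

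Scaling moved directions as well. In log2(TPM + 1) values the median of all tested genes was 0.159, and 90.7% of 4991 calls were higher. Without normalization factors 70.7% of 3233 calls were higher, against 45.5% of the main calls. Relative to the median of all genes, fatty acid synthesis (0.79), cholesterol synthesis (-0.52) and cytosolic ribosomal protein genes (-0.36) kept their side in TPM values. Of the 26 lists in the plot of list medians, that of the respiratory chain changed side there (-0.049 in the main fit, 0.01 in TPM values relative to all genes). The urea cycle and amino acid breakdown list was at -0.0123 in the main fit, about level with the -0.0135 of all tested genes. In TPM values relative to all genes it was at 0.067. Without subtracting the shift of all genes, the TPM medians of bile acid synthesis (0.033), NRF2 targets (0.122), mitochondrial ribosomal proteins (0.07) and the proteasome (0.094) were above 0 as well.

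Sinusoidal endothelial markers, which come from the cells lining liver capillaries, had 12 of 16 called higher and 0 lower. The medians were 0.35 in GF and 0.37 in ConvR mice. Within the states 5 were called higher in GF and 8 in ConvR mice, and 2 in both (background 1.86%). Cdh5 (VE-cadherin) had 25.1, 28.4 and 23.9 CPM on chow and 40.8, 34.3 and 38.7 on HF/HS in GF mice, and 27.1, 27 and 31.9 CPM on chow and 37.3, 39.4 and 43.8 on HF/HS in ConvR mice, a rise of 0.52 ± 0.07 (adjusted p = 0.000226). Stab2, a scavenger receptor, rose by 0.44 ± 0.082, the VEGF receptor Flt1 by 0.53 ± 0.10 and Pecam1 by 0.41 ± 0.092. The summed level of the 16 markers was 216.7 to 266.7 TPM in chow livers and 274.0 to 396.7 TPM in HF/HS livers. These ranges did not overlap, but the gap is narrow and TPM values were higher on HF/HS over genes in general. In log2(TPM + 1) values the median of all tested genes was 0.159, and relative to it the median of these markers was 0.367. With the length trend removed 10 were called higher, and without ConvR chow mice 1 and 2, 7 were.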

How the data were processed

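Liver RNA of 15 mice (5 groups of 3) was extracted with an RNeasy minikit and sequenced from stranded polyadenylated libraries, per the labels' protocols. The authors aligned reads with Bowtie2 to mm9 and made the deposited expected counts with RSEM 1.2.23, per the submitters' processing notes. The deposited TPM values were made by RSEM, per the file headers, and are scaled to gene length and library total. RSEM divides reads among near-identical genes, so members of gene families are uncertain. The 20325 listed genes included 4014 without a count in any library, and the 12 libraries compared held 14737578 to 21331381 estimated counts, which limits the precision of genes with few reads.

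Here the expected counts were rounded, filtered with filterByExpr (minimum count 10) and scaled by TMM. The quasi-likelihood model of edgeR 4.0.16 in R 4.3.3 was fitted to all 15 libraries with 5 group means, so ConvD libraries entered only the estimate of spread (10 residual degrees of freedom). Contrasts gave the averaged diet effect, the effect in each state and their difference, with a standard error from the F statistic and 95% intervals. CPM used the normalised library sizes. Summed marker levels used TPM. Alternatives used DESeq2 1.42.0, limma 3.58.1, TPM, a lowess fit on gene length, a replicate block and omitted libraries. The model was checked on simulated data.

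Named genes were (a) the 12 largest changes each way among called genes of at least 2 CPM whose diets did not overlap in either state, leaving out predicted genes; (b) the 4 members with the smallest adjusted p of each of the 48 lists, given for the 26 lists in the plot of list medians and, for the other lists, where called; and (c) Fasn, Scd1, Cyp7a1, Cyp3a11, Cd36, Cyp4a14 and Pck1, among others. Some genes that the rule names are not reported here, in the text or the plots, but stay in the list counts. Other genes were chosen after their values were seen: called genes of a list with 5 or fewer calls in a direction, regulators such as Srebf1, and Gna14. The comparison, the rule and the 48 lists were chosen with earlier results of these data known. Replicate numbers did not pair the mice: of 18 pairs of same-numbered libraries 1 had a correlation of deviations above 0.1 (range -0.147 to 0.246). Promoter windows and their coordinates came from RefSeq (GRCm38.p6) and were matched by symbol.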

Additional observations from a re-analysis of the deposited data

Results flagged for a closer look

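Cyp3a11 differed in direction between the states, with every GF HF/HS liver above every GF chow liver and every ConvR HF/HS liver below every ConvR chow liver. The diet log2 fold change was 0.92 in GF and -1.40 in ConvR mice, a difference of -2.32 (interaction adjusted p = 0.0974 with edgeR, not past 0.05). Gna14 did the same, with 0.76 in GF mice (3.3, 3.48 and 4.59 CPM on chow, 7.14, 6.2 and 6.05 on HF/HS) and -0.86 in ConvR mice (8.63, 7.17 and 8.38 and 5.1, 3.17 and 5.05 CPM), a difference of -1.62 (adjusted p = 0.0503). Over all tested genes 85 had groups that did not overlap in either state and lay on opposite sides, beside 1604 on the same side. No outlier test was run on groups of 3 mice, and counts from refits without each mouse are given with the results.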

How the results depend on the processing

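The averaged diet effect had between 2345 and 3210 calls when 1 mouse was left out, against 3105. Of the 3105, 2305 to 2778 were called again with the same sign in these fits. There were 4991 or 4999 calls in log2(TPM + 1) or log2(TPM + 0.1) values, with 90.7% of the 4991 higher. A fold change of at least 2 left 327. In GF mice the count was 301 to 1440 without 1 mouse, 623 and 642 in TPM values, 670 with the 12 libraries alone, 659 with the length trend removed and 193 at 2-fold. In ConvR mice it was 984 to 2597 without 1 mouse, 3238 without normalization factors, 6100 and 6054 in TPM values, 427 at 2-fold, 344 without ConvR chow mice 1 and 2 and 1105 without these and GF chow mouse 1. Calls for the difference between states numbered 0 to 436 without 1 mouse, 6 without normalization factors, 2 without the filter, 11 with a stricter filter, 150 with DESeq2 and 1192 and 1214 in TPM values. Shared calls of 1 sign were 175 to 529 without 1 mouse, 303 with the 12 libraries alone, 298 with length removed, 95 at 2-fold and 206 without ConvR chow mice 1 and 2. Genes with alike effects were 1714 to 2519 without 1 mouse, 4006 in log2(TPM + 1) values, 30 at 2-fold, 1564 without ConvR chow mice 1 and 2 and 1418 with the narrower bound. Where the construction of a setting does not show why a count moved, the cause was not tested.

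With a replicate block 2928 genes were called for the averaged effect, 1000 in GF and 1617 in ConvR mice, 422 in both with the same sign and 0 for the difference, and 1 of 12 libraries correlated best with its own number. Of 114 named or list-picked genes called for the averaged effect, 106 to 114 kept call and direction in the other settings that tested all of them, except the 2-fold minimum (64). Signs turned for Ahr, to 0.0777 without ConvR chow mice 1 and 2 and 0.0360 without these and GF chow mouse 1, and for Cyp3a11, to 0.0606 and 0.0612 in TPM values, and neither was called in those settings or with all libraries. Where groups of 3 lost a mouse, the remaining mice shared the spread estimated over all groups, and ConvR chow mouse 3 alone was assumed to vary like the others when mice 1 and 2 were left out. Genes with few reads, such as Hao2, Cyp2b9 and Pnpla3 on chow, are limited by depth.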

Other observations

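Insulin signalling genes had 6 of 16 called higher and 3 lower (56.2%, beside 25.1% of all tested genes). Irs1, the substrate that passes the insulin signal on, spanned 12.5 to 34.6 CPM on chow and 25 to 54.3 on HF/HS and rose by 0.77 ± 0.13, with 0.69 in GF and 0.84 in ConvR mice. Trib3, an inhibitor of AKT, was 1.00 ± 0.20, Gsk3b was 0.30 ± 0.076 and the phosphatase Ptpn1 was -0.48 ± 0.13. With the length trend removed 2 were called higher and 2 lower. The growth hormone and IGF list, at 21.4% called, was under that 25.1%. It had 2 of 14 called higher, Igfbp3 (0.73 ± 0.11) and Jak2 (0.29 ± 0.065), and 1 lower, Igfbp2 (-0.57 ± 0.19). The carrier subunit Igfals was -0.42 ± 0.15 and not called (adjusted p = 0.056).

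Carboxylesterases, which split drugs and lipid esters, had 2 of 15 called higher and 5 lower. Ces1b spanned 47.7 to 83.6 CPM on chow and 27 to 42.7 on HF/HS and fell by 0.89 ± 0.14, with -0.97 and -0.81 by state. Ces3b (-0.72 ± 0.15) and Ces2a (-0.75 ± 0.17) fell too, and Lipa, the lysosomal acid lipase kept in the same list, rose by 0.69 ± 0.11. Without ConvR chow mice 1 and 2, 2 were called higher and 8 lower. Serine, methionine and taurine genes, at 21.7% called under that 25.1%, had 2 of 23 called higher, Gldc (0.36 ± 0.084) and Mtr (0.50 ± 0.12), and 3 lower, among them Csad (-1.14 ± 0.24), which makes taurine for bile acid conjugation, and Cth (-0.65 ± 0.15).

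The metallothioneins Mt1 (-3.34 ± 0.58) and Mt2 (-4.23 ± 0.71) were called lower, with -1.32 and -1.83 in GF mice and -5.37 and -6.63 in ConvR mice. Both are members of the acute phase list, and without ConvR chow mice 1 and 2 they were -1.71 (adjusted p = 0.0174) and -2.55 (adjusted p = 0.0118). Slc39a4, a zinc carrier, was -0.62 ± 0.14. Endoplasmic reticulum chaperones had 2 of 22 called higher, with Herpud1 at 0.57 ± 0.17, and 3 lower, Sdf2l1 (-0.81 ± 0.20), Xbp1 (-0.66 ± 0.13) and Sec61b (-0.43 ± 0.06), 22.7% in all beside the 25.1% of all tested genes. Heat shock genes had 2 of 14 called lower, Hspd1 (-0.20 ± 0.068) and Hspe1 (-0.32 ± 0.076), or 14.3%, also under the 25.1%.

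Several lists stayed under the 25.1% background. The interferon list had 2 of 27 called higher, Ifi44 (0.93 ± 0.29) and Gbp3 (0.56 ± 0.17), and 1 lower, Mx2 (-0.80 ± 0.24), and these 3 calls ended without ConvR chow mice 1 and 2. The circadian list had 2 of 20 called higher, Nr1d2 (0.53 ± 0.18) and Hlf (0.35 ± 0.11), and 6 higher without the 3 chow mice that stood apart. Proliferation genes had 1 of 21 called higher, Rrm2 (0.63 ± 0.15), and histone enzymes had 2 of 42 higher, Ep300 (0.33 ± 0.086) and Crebbp (0.32 ± 0.093), and 2 lower, Kat2a (-0.31 ± 0.072) and Hdac1 (-0.23 ± 0.078). The 8 tested MHC class II genes had a median of 0.18.

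The shares called in the Kupffer (17.6%), stellate (5%), cholangiocyte (12.5%) and monocyte and recruited macrophage (10%) lists were under the 25.1% of all tested genes. Kupffer cell markers had 2 of 17 called higher, Cd68 (0.56 ± 0.13) and Mrc1 (0.43 ± 0.10), and 1 lower, Lyz2 (-0.51 ± 0.15). Stellate cell and matrix genes had 1 of 20 called higher, Ecm1 (0.22 ± 0.052), and cholangiocyte markers 1 of 8 lower, Sox9 (-1.52 ± 0.27). Of 10 markers of monocytes and recruited macrophages Cd9 (0.41 ± 0.14) was called higher. None was called in the next 2 lists. The 9 tested T and NK cell markers had a median of 0.19, and the median of 6 markers of B and plasma cells was 0.33. Adipocyte markers had 3 of 5 tested genes called higher (background 11.4%), Cfd, Fabp4 (0.87 ± 0.18) and Cidec (2.50 ± 0.53), while Adipoq, Lep, Retn, Plin1 and Slc7a10 were under 1 TPM in all libraries. Cfd had 27 and 22 reads in the GF and ConvR chow groups and 351 and 242 in the HF/HS groups. A gene that passes the filter only through its HF/HS level had to be higher, so this count is a description. Red blood cell markers had 2 of 6 called lower, Hbb-b1 (-1.02 ± 0.30) and Alas2 (-0.41 ± 0.12). That is 33.3%, beside 25.1% of all tested genes, and the list's median was -0.040 with 3 members above 0 and 3 below. Of the exocrine pancreas markers 12 of 14 were under 1 TPM in all libraries and Cela1 was called lower (-0.67 ± 0.18). Among hepatocyte markers Alb was called higher (0.56 ± 0.18), and Serpina1a (-0.28 ± 0.10) and Nr1h4 were called lower, of 17 (17.6% in all, also under 25.1%).

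Besides the interferon genes, the averaged calls of Ptpn1, Gldc, Sdf2l1, Hspd1, Hlf, Kat2a, Hdac1, Nr1h4, Alb, Serpina1a and Ecm1 ended without ConvR chow mice 1 and 2, with adjusted p from 0.054 for Kat2a to 0.193 for Alb by the same edgeR test. Sox9 was -0.93 without them and Mx2 was -0.27.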
